A study of Mus musculus with 64 samples.

Results

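Conditioned medium from PGE2-producing tumour cells was applied to cultured wild-type mouse natural killer (NK) cells that were then stimulated through the activating receptor NK1.1. The 4 libraries of cells given conditioned medium (CM) were compared with the 4 libraries of cells left untreated before the same stimulation, chosen by their sample titles from 64 libraries in 18 groups. Spleen NK cells of C57BL/6J mice (WT) were cultured for 5 days in low-dose IL-2 and IL-15 complexed with its receptor alpha chain. They then spent 5 h in the treatment, of which the first 1 h was treatment alone and the last 4 h were with anti-NK1.1, while IL-2 remained in the medium. The CM came from BRAFV600E tumour cells, and its PGE2 content is not given in the sources used here.

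Other groups serve as references. They are WT cells given purified PGE2 at 100 ng/ml with the same stimulation (4 libraries), and WT cells with or without CM and without stimulation (4 libraries each, 5 h of treatment). They also include stimulated cells of 2 further genotypes with and without CM: Ptger2-/-Ptger4fl/fl mice, which lack the PGE2 receptor EP2 (EP2KO, 4 libraries each), and GzmbCrePtger2-/-Ptger4fl/fl mice, in which Cre under control of Gzmb also removes EP4 (DKO, 3 libraries each). Deletion of Ptger4 in the DKO therefore depends on Gzmb expression and starts only once it is on, and the share of cells deleted is not given in the sources used here. No control medium from cells that make no PGE2 was used here, so the untreated cells differ from the CM cells in the whole tumour cell secretome. Whether the replicates of a group come from different mice or culture wells is not labelled; p-values therefore reflect only how these libraries vary, which may be technical.

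PGE2 is a lipid made by cyclooxygenases that tumours release into their surroundings. In NK cells it acts through EP2 and EP4, receptors that couple to adenylate cyclase, raise cyclic AMP (cAMP) and activate protein kinase A and the transcription factor CREB. NK1.1 signals through ITAM-bearing adaptors, calcium, MAP kinases and NF-kB, which switch on cytokine and chemokine genes and feed killing.

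The 8 libraries held 1148397 to 1465590 counts, so 1 count is close to 1 CPM, the library-scaled count in which all levels are given. Counts from mitochondrial genes were 7.22% to 10.4% in untreated and 7.49% to 9.44% in CM libraries. NK markers took 0.768% to 1.26% of counts in untreated and 0.777% to 0.927% in CM libraries, and 5 of 15 were lower with CM (Prf1, Tbx21, Ncr1, Gzmb and Nkg7) and 1 higher (Il2rb). Markers of other cell types were low in both groups. T cell markers (12 genes) took 0.041% to 0.0692% of counts in untreated and 0.0488% to 0.0658% in CM libraries, macrophage and dendritic cell markers (15 genes) 0.0127% to 0.024% and 0.0115% to 0.0238%. B cell markers (10 genes) took at most 0.00629% and 0.00651%, with Pax5 at 0 in all 8 libraries, and erythroid and platelet markers (8 genes) at most 0.00293% and 0.0017%. Melanoma markers, of which 6 of 8 were in the table, took at most 0.000429% and 0.000402%, with Dct at 0 in all 8 libraries. Neutrophil markers (10 genes) ranged from 0.0045% to 0.0201% in untreated and from 0.00462% to 0.0248% in CM libraries, the highest value in each group being replicate 2. S100a8 stood at 43.4 and 64.4 CPM in those 2 libraries and at 6.97 to 19.2 CPM in the other 6. With PGE2, replicate 2 also had the highest S100a8 (105 CPM, the others 7.65 to 14.5 CPM). Counts for the main comparison, for CM against PGE2 and for the differences between states and genotypes are therefore also given without the libraries numbered 2. In EP2KO cells neutrophil markers were highest in replicates 1 and 4 (0.0615% and 0.0529% untreated, 0.0748% and 0.0458% with CM). Those libraries are kept by this omission. Since this is bulk RNA, fewer cells of a type and less RNA per cell cannot be told apart.

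CM moved the stimulated transcriptome in both directions. The steepest falls included cytokine genes such as Lta, Il2, Tnf and Csf2, while cAMP-responsive genes such as Crem, Pde4d and Rgs2, the interferon-gamma receptor gene Ifngr1 and Stat3 rose. Of 10723 genes tested, 665 were higher (6.2%) and 989 lower (9.22%) with CM at an adjusted p under 0.05 (edgeR quasi-likelihood test, Benjamini-Hochberg), which is what "called" means here. Changes of at least 2-fold were found for 250 of the higher and 218 of the lower genes. Every CM library lay above every untreated library for 694 genes (6.47%) and below for 887 (8.27%). When the spread was estimated from these 8 libraries alone, 760 genes were called, 363 higher and 397 lower. Without the libraries numbered 2 in every group there were 565 higher and 567 lower. With the replicate number as a block, an alternative that would hold if the numbers mark pairs, 972 were higher and 1374 lower.

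**Figure D1:**
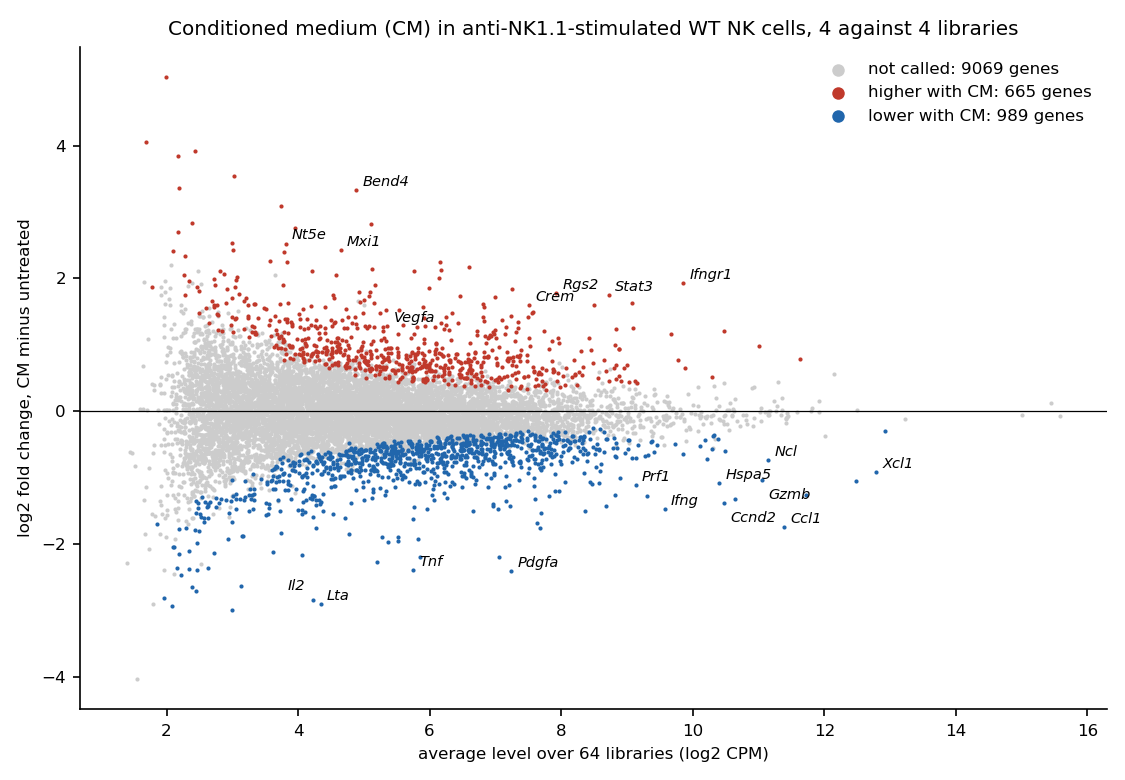
Average level of each tested gene over the 64 libraries (log2 CPM) against its log2 fold change with CM in stimulated WT NK cells. Each point is a gene; red marks the 665 called higher and blue the 989 called lower, and the secreted effector genes named in the plot all lie on the blue side except Vegfa.

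Secreted effectors come first, because they are what an activated NK cell delivers to its neighbours. Among 19 tested cytokine and growth factor genes, 10 fell and 2 rose, with a median log2 change of -0.83 against -0.04 over all genes tested. Among 10 tested chemokine genes 5 fell and none rose, with a median of -0.90. Ifng encodes interferon-gamma, the main macrophage-activating product of NK cells. It read 1562, 1163, 2143 and 2629 CPM in untreated replicates 1 to 4 and 624, 664, 637 and 766 CPM with CM. The CM libraries sat within a narrow band below every untreated library, and the change was -1.48 ± 0.18 on the log2 scale (SE, adjusted p = 4.59e-09).

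Tnf, encoding tumour necrosis factor, went from 104, 121, 195 and 199 CPM to 19.2, 31.4, 26.8 and 41.2 CPM, a change of -2.39 ± 0.22. Its neighbours encode the 2 lymphotoxin chains and fell with it: Lta from 34.5 to 57.4 CPM down to 4.47 to 7.88 CPM (-2.90 ± 0.38), and Ltb from 228 to 354 CPM down to 119 to 125 CPM (-1.28 ± 0.17). The 3 genes lie side by side, Ltb at chr17:35194439-35196320, Tnf at chr17:35199381-35202007 and Lta at chr17:35203165-35205351 (GRCm38, GENCODE M21). None of the 3 had an overlap between the groups.

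Il2, a T cell growth factor that stimulated NK cells transcribe at a low level, read 33.3, 23.5, 83.6 and 81.3 CPM without and 7.11, 10.5, 11 and 0.895 CPM with CM. Replicate 4 with CM rests on about 1 count, and the fitted change was -2.85 ± 0.38. Csf2, encoding the myeloid growth factor GM-CSF, fell from 90.4 to 142 CPM to 23.5 to 33.0 CPM (-1.89 ± 0.27). The TNF family ligands Tnfsf8 (CD30 ligand, -2.19 ± 0.17) and Tnfsf14 (LIGHT, -1.93 ± 0.18) fell by about as much, and Tnfsf10, which encodes the death ligand TRAIL, by less (-0.67 ± 0.20).

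Outside the list, 2 growth factor genes were among the 15 largest falls. Pdgfa, encoding a platelet-derived growth factor chain, fell from 487, 410, 478 and 388 CPM to 72.6, 98.2, 73.3 and 86.8 CPM (-2.41 ± 0.17), and Hbegf, encoding an EGF receptor ligand, from a mean of 40.7 to 8.98 CPM (-2.17 ± 0.24). The 2 members that rose were Vegfa, the angiogenic factor, from 24.2, 34.2, 38.2 and 38.7 to 66.9, 101, 88.3 and 71.6 CPM (1.28 ± 0.19), and Tgfb1, from 355 to 466 to 576 to 760 CPM (0.70 ± 0.15). The other 7 tested members of the list were not called.

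Chemokine genes also differed among themselves. Ccl1, which draws CCR8-bearing lymphocytes, fell from 3573 to 8610 CPM to 1722 to 2116 CPM (-1.75 ± 0.20). Ccl3 and Ccl4, macrophage inflammatory proteins, changed by -1.26 ± 0.24 and -1.05 ± 0.19, Ccl9 by -1.20 ± 0.19 and Xcl1, which draws cross-presenting dendritic cells, by -0.92 ± 0.17. Xcl1 stood at 11860, 10008, 16273 and 19346 CPM without and at 7329, 6661, 7162 and 9201 CPM with CM. Ccl5, a T cell and monocyte attractant, was not called at 1674 to 3219 CPM without and 1986 to 2745 CPM with CM (-0.18 ± 0.20, adjusted p = 0.62), although it lies at chr11:83525778-83530518, in the same cluster as Ccl9, Ccl3 and Ccl4 (chr11:83572919-83664683).

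**Figure D2:**
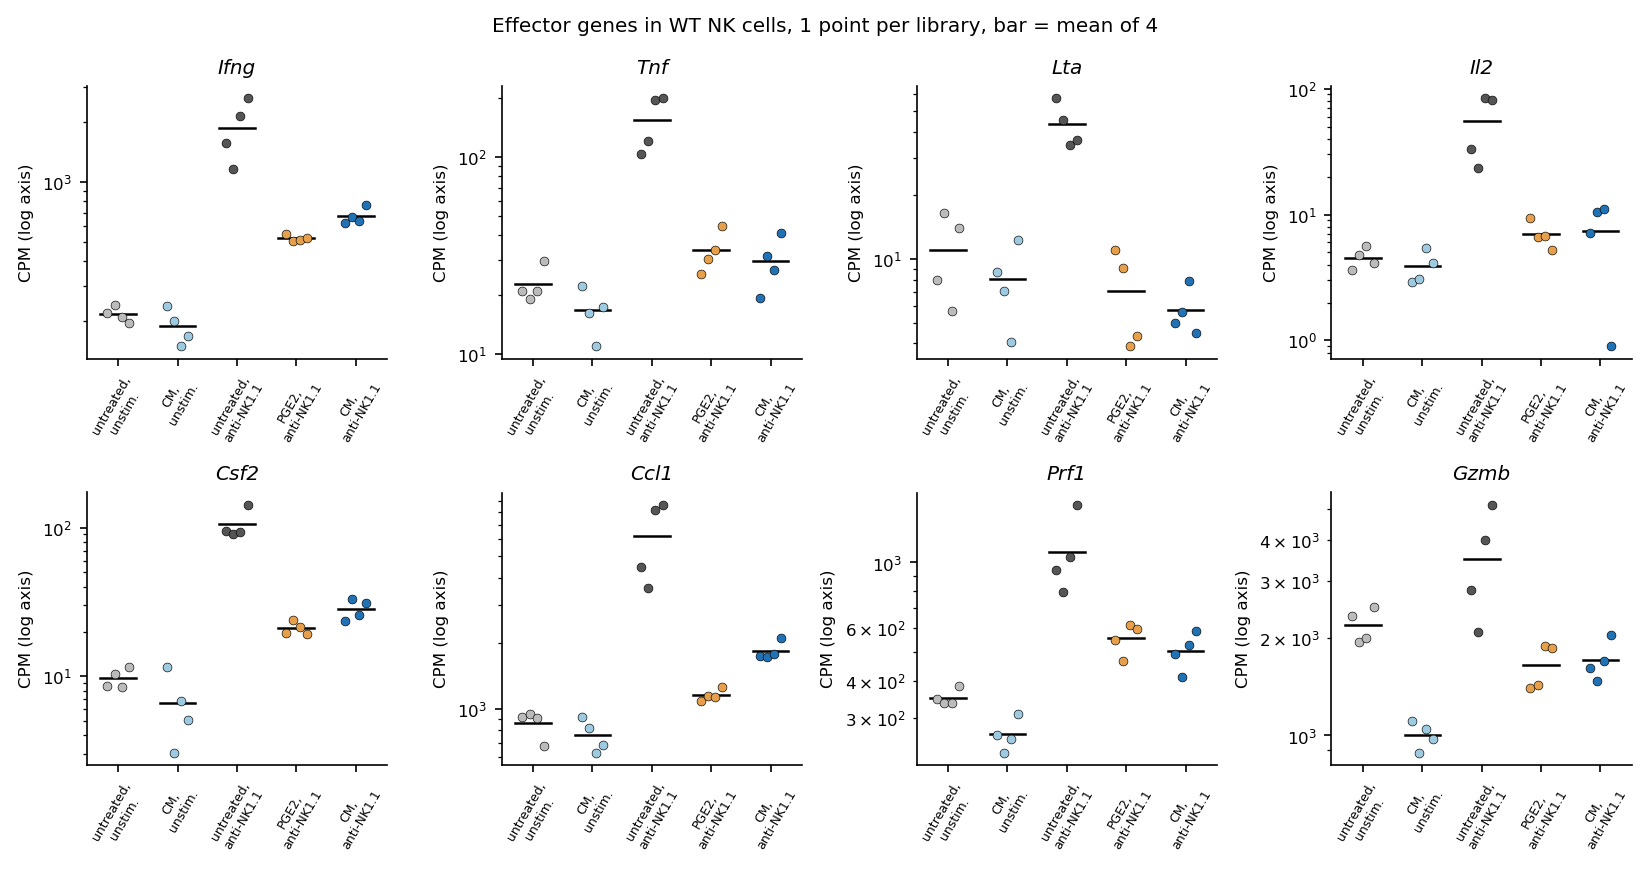
Levels (CPM, log axis) of 8 effector genes in 5 groups of WT NK cells, 1 point per library with a bar at the mean of 4. In stimulated cells all 4 CM points lie below all 4 untreated points in each panel, near the points for PGE2; for Gzmb they also lie below the unstimulated untreated mean of 2192 CPM.

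Of the 23 tested genes for the cytotoxic granule, 5 fell and none rose. Prf1, the pore-forming perforin, went from 944, 797, 1041 and 1563 CPM to 490, 410, 526 and 589 CPM (-1.11 ± 0.18). Gzmb, the apoptosis-inducing protease granzyme B, went from 2810, 2084, 4025 and 5149 CPM to 1620, 1473, 1701 and 2045 CPM (-1.04 ± 0.23), with untreated replicate 2 only just above CM replicate 4. Rab27a, needed for granule release, fell by 0.85 ± 0.14 on the log2 scale, and Nkg7 and Cst7 by 0.73 ± 0.17 and 0.79 ± 0.19. The remaining 18 were not called. When untreated replicate 2 was left out, 8 members fell.

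Receptors moved in both directions. Among 22 activating receptors and adaptors 7 fell and 2 rose. The SLAM family receptor Slamf7 fell from a mean of 253 to 96.1 CPM (-1.39 ± 0.15), Cd244a from 80.8 to 29.7 CPM (-1.44 ± 0.18), Crtam, a nectin-like receptor, from 1482 to 613 CPM (-1.27 ± 0.14) and Ncr1, the NKp46 receptor, from 155 to 90.8 CPM (-0.77 ± 0.16). Fcgr3, the Fc receptor for antibody-coated targets, rose from 35.6 to 59.1 CPM to 87.8 to 145 CPM (1.35 ± 0.27). Klrb1c, which encodes NK1.1 itself, the receptor used for stimulation, was not called: it read 226, 187, 199 and 193 CPM without and 169, 126, 171 and 164 CPM with CM (-0.35 ± 0.14, adjusted p = 0.0714). Its groups did not overlap, and DESeq2 gave an adjusted p of 0.0405 and the edgeR fit with the replicate number as a block 0.00782. The replicate numbers were not taken to pair the WT libraries, so the block value is given as an alternative only.

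Of 23 inhibitory receptors and phosphatases, 5 rose and 3 fell. Klrb1b, an inhibitory receptor of the same family as NK1.1, rose from 59.6 to 76.9 CPM to 178 to 221 CPM (1.5 ± 0.15). Nt5e, the ectoenzyme CD73 that makes adenosine, rose from 4.54, 7.12, 4.54 and 2.32 CPM to 31.3, 25.8, 23.7 and 28.6 CPM (2.52 ± 0.34), and the checkpoint receptor Tigit from 2.73 to 5.42 CPM to 10.7 to 17.7 CPM (1.7 ± 0.40). The checkpoint receptor Havcr2 (TIM-3), by contrast, fell from 113 to 165 CPM to 43.4 to 58.0 CPM (-1.47 ± 0.19).

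Among 9 costimulatory receptors, Icos rose from a mean of 33.0 to 92.2 CPM (1.48 ± 0.15) with Cd28 and Tnfrsf1b. The early activation marker Cd69 fell from 195 to 248 CPM to 74.7 to 82.9 CPM (-1.5 ± 0.14), as did Tnfrsf4.

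Of 27 genes for signalling just below the receptors, 7 fell and 3 rose. The adaptor Lcp2 (SLP-76) fell from a mean of 347 to 158 CPM (-1.13 ± 0.12). Pik3r1, a regulatory subunit of PI3 kinase, and Cblb, a ubiquitin ligase that restrains NK activation, rose by 1.24 ± 0.13 and 0.98 ± 0.16. With the 8 libraries alone, 3 fell and 2 rose, and the same counts were found without CM replicate 1. Without untreated replicate 2 or CM replicate 3, 4 fell and 2 rose.

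Of 23 early activation transcription factors 10 fell, 1 rose and 12 were not called, with a median of -0.65. Egr2 went from 295, 271, 357 and 423 CPM to 111, 136, 132 and 148 CPM (-1.36 ± 0.14), and Egr1 and Myc by -1.30 ± 0.17 and -1.24 ± 0.18. Nr4a1, a factor switched on by antigen receptors and by cAMP alike, was not called at a mean of 176 and 169 CPM (-0.06 ± 0.19, adjusted p = 0.888). With the 8 libraries alone, 6 of these factors fell.

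Genes of the NF-kB pathway also fell, 13 of 20 with 1 rise and a median of -0.64. Nfkbia, the inhibitor that NF-kB itself induces, fell from 709, 736, 974 and 982 CPM to 261, 371, 318 and 312 CPM (-1.43 ± 0.13). The subunit gene Rel fell from 1020, 1038, 1183 and 940 CPM to 428, 433, 477 and 410 CPM (-1.26 ± 0.13), and the adhesion ligand Icam1 by 1.42 ± 0.20 on the log2 scale. Tnfaip3, encoding the NF-kB brake A20, was the member that rose, from 176 to 239 CPM to 283 to 327 CPM (0.65 ± 0.14). With the 8 libraries alone 7 members fell, and the lists of NF-kB and adhesion genes share Icam1.

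Promoters are shown for Nfkbia and Nfkbid, 2 of the NF-kB inhibitor genes that fell, and, from the cAMP list, for Rgs2, which rose. Nfkbib, Nfkbie and Nfkbiz of the same NF-kB list also fell and are not shown. Sequences are RefSeq promoters (GRCm38.p6) from 250 bases before to 50 bases after the start, on the gene's strand, 5′ to 3′. Capitals mark matches to the NF-kB consensus in Nfkbia and Nfkbid and to the core of the cAMP response element, TGACG on either strand, in Rgs2. Nfkbid, which fell, also holds the full cAMP response element TGACGTCA, left here in lower case. Rgs2, which rose, holds the core only.
Nfkbia: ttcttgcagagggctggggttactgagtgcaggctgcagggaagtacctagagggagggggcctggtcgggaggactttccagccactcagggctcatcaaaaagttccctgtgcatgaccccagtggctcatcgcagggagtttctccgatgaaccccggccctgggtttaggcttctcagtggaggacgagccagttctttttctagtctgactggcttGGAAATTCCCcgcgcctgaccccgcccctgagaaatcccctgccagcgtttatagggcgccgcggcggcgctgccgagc
Nfkbid: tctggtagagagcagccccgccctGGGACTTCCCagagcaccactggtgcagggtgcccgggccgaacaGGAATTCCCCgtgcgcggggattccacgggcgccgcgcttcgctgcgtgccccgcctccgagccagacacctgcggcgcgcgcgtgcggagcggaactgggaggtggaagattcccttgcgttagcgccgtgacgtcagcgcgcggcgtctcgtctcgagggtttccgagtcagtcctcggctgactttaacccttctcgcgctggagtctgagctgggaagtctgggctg
Rgs2: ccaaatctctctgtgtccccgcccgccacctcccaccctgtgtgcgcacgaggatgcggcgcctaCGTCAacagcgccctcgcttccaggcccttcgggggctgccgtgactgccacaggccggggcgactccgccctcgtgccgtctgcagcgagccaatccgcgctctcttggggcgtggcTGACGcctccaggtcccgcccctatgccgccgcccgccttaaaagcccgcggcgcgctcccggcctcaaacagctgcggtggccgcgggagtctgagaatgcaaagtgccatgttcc

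The Nfkbia window is chr12:55492598-55492897 on the minus strand, the Nfkbid window chr7:30422156-30422455 on the plus strand and the Rgs2 window chr1:144004100-144004399 on the minus strand. A match describes letters only. The NF-kB consensus was found in the promoters of 7.73% of the lower and 6.92% of the higher genes, against 6.09% of all tested genes that had a promoter entry (8009 of 10723). The cAMP core was found in 31.7% of the higher and 43.6% of the lower genes against 38.1%, and the full element TGACGTCA in 2.69% and 3.48% against 3.98%. None of the 39 named risen genes with an entry held the full element. Over all 32851 promoters of the table the 3 motifs were found in 4.51%, 20.8% and 1.79%. The shorter core and the NF-kB consensus were searched after the full element had been counted, and the core lies within the full element.

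Mir155hg, the host transcript of a microRNA that NF-kB and NK activation are known to induce, fell from 114, 152, 192 and 160 CPM to 50.5, 82.1, 64.6 and 59.1 CPM (-1.27 ± 0.19). The mature microRNA was not measured. It is shown with its seed, bases 2 to 8, in capitals, because the seed decides which transcripts it can pair with.
mmu-miR-155-5p: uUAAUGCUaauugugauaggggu

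The receptors for PGE2 were themselves lower. Ptger4, encoding EP4, fell from 51.4, 80.5, 52.7 and 63.5 CPM to 23.5, 36.2, 20.5 and 27.7 CPM (-1.21 ± 0.20). Ptger2, encoding EP2, fell from 18.1, 16.4, 29.1 and 36.4 CPM to 15.6, 12.1, 11 and 12.5 CPM (-0.94 ± 0.26, adjusted p = 0.00721), with an adjusted p of 0.0742 from the 8 libraries alone and of 0.089 without untreated replicate 4. Of 18 tested genes of prostanoid synthesis, receptors and adenylate cyclases, 3 fell and 1, the cyclase Adcy7, rose (0.72 ± 0.23). The call for Adcy7 was lost with the 8 libraries alone (adjusted p = 0.0916), without untreated replicate 3 (0.116) or 4 (0.105) and without CM replicate 1 (0.0538) or 4 (0.0542).

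Genes known to respond to cAMP, protein kinase A and CREB rose in 11 of 27 cases and fell in 4, with a median of 0.52. Crem, encoding a cAMP-induced relative of CREB, rose from 68.8, 62.0, 84.5 and 96.0 CPM to 237, 196, 233 and 272 CPM (1.59 ± 0.19). Rgs2, which quenches G protein signals, rose from 86.9 to 108 CPM to 296 to 363 CPM (1.78 ± 0.15). Phosphodiesterases break cAMP down, and 3 of their genes rose: Pde4d from 4.64 to 15.7 CPM to 33.8 to 50.5 CPM (2.15 ± 0.24), Pde4b from 33.3 to 47.2 CPM to 92.6 to 102 CPM (1.22 ± 0.16) and Pde3b (0.80 ± 0.18). The kinase Sik1, a brake on CREB coactivators, rose by 1.54 ± 0.24. The 4 that fell were Rgs16, Gem, Nr4a3 and Ppp1r15a. Nr4a3 is also on the list of early activation factors and Rgs16 on that of TGF-beta response genes. With the 8 libraries alone 11 rose and none fell.

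The largest rise was that of Bend4, a gene for a BEN-domain protein, from 6.80, 7.83, 4.54 and 3.87 CPM to 90.3, 45.1, 54.4 and 47.4 CPM (3.33 ± 0.36). Ier5l (2.82 ± 0.41), the MYC antagonist Mxi1 (2.42 ± 0.25), the ubiquitin ligase gene Rnf125 (2.18 ± 0.18), the transferrin gene Trf (2.12 ± 0.23), the triglyceride synthesis gene Dgat1 (2.11 ± 0.24) and the insulin receptor substrate Irs2 (2.0 ± 0.19) also rose steeply. Each had all CM libraries above all untreated ones. Stat3, a transcription factor downstream of many cytokines, read 203, 197, 216 and 193 CPM without and 716, 697, 644 and 656 CPM with CM (1.75 ± 0.13).

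Cytokine receptors and trafficking genes included further large rises. Ifngr1, the ligand-binding chain of the interferon-gamma receptor, rose from 285, 192, 215 and 214 CPM to 934, 749, 868 and 899 CPM (1.93 ± 0.15), and Il2rb and Il12rb2 by 0.77 ± 0.12 and 0.84 ± 0.17. Il2ra, the high-affinity IL-2 receptor chain, fell from 668 to 884 CPM to 232 to 346 CPM (-1.5 ± 0.19). Over the list of 24, 5 rose and 3 fell, with a median of 0.00. Of 23 trafficking and adhesion genes 9 rose and 3 fell, with a median of 0.49. Cxcr4, the bone marrow homing receptor, rose from 7.74 to 22.8 CPM to 44.1 to 66.8 CPM (1.79 ± 0.26), Gpr183, an oxysterol receptor, from 14.5 to 22.4 CPM to 63.6 to 81.4 CPM (1.85 ± 0.18), and the monocyte chemokine receptor Ccr2 from 223 to 494 CPM to 646 to 909 CPM (1.17 ± 0.15). The lymph node homing receptor gene Ccr7 rose by 2.24 ± 0.48 from a mean of only 4.74 CPM.

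Among 30 lineage and effector transcription factors, 8 rose and 7 fell. Foxo1, Tcf7 and Bach2, factors of less differentiated lymphocytes, rose by 0.88 ± 0.15, 0.76 ± 0.15 and 0.80 ± 0.17, and Ikzf2 by 1.42 ± 0.22. Tbx21 (T-bet), which drives effector genes, fell from 98.3, 79.1, 140 and 159 CPM to 54.1, 45.1, 47.3 and 80.5 CPM (-1.07 ± 0.21), with CM replicate 4 above untreated replicate 2. Irf4 and Prdm1 fell by 0.87 ± 0.20 and 0.89 ± 0.29. The list was mixed: Rora, Runx3, Ets1 and Lef1 also rose, and Ikzf1, Tox, Ahr and Zeb2 also fell. With the 8 libraries alone, 5 rose and 4 fell.

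Of 30 ribosome biogenesis genes 29 fell and none rose, with a median of -0.77 against -0.04 over all genes tested. Gnl3 (nucleostemin) fell from 441 to 618 CPM to 229 to 269 CPM (-1.06 ± 0.13), and the nucleolar proteins Nop56, Ncl and Npm1 by 0.78 ± 0.14, 0.74 ± 0.14 and 0.65 ± 0.12. With the 8 libraries alone 18 fell, and without the libraries numbered 2 there were 26. Ccnd2, the cyclin that starts the cell cycle, fell from 2846 to 3360 CPM to 1050 to 1376 CPM (-1.38 ± 0.13) and the cycle inhibitor Cdkn1b rose by 1.19 ± 0.13, while over 34 cell cycle and replication genes 1 rose and 2 fell.

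Of 20 genes of the unfolded protein response 12 fell and 1 rose. Hspa5, the main chaperone of the endoplasmic reticulum, fell from 2864, 2730, 2706 and 2645 CPM to 1309, 1359, 1354 and 1149 CPM (-1.08 ± 0.13). The member that rose was the sensor Ern1 (1.27 ± 0.21), and with the 8 libraries alone 6 fell. Of 24 genes of the Atf4 response and tRNA charging 10 fell and 1 rose, and 4 fell with the 8 libraries alone.

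Of 24 tested genes of glycolysis and nutrient uptake 7 fell, namely Tfrc, Slc2a3, Slc1a5, Slc7a5, Slc16a1, Hk2 and Slc7a1, and 2 rose, Slc16a3 and Tpi1. Tfrc, the transferrin receptor, fell from 282 to 330 CPM to 122 to 154 CPM (-1.14 ± 0.16). Of 18 hypoxia response genes 7 rose and 1 fell, including Mxi1, Vegfa and Hif1a (0.58 ± 0.14).

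Among 20 targets of IL-2 and IL-15 through STAT5, 9 fell and 1 rose. The member that rose, Bcl6 (1.29 ± 0.23), is also on the list of STAT3 targets. Of the members that fell, Lta, Myc, Gzmb and Il2ra are also on other lists, and STAT5 activity was not tested. Of 28 interferon-stimulated genes 3 fell and none rose, and 1 of 25 nuclear oxidative phosphorylation genes fell, shares near or below the 9.22% over all genes. No melanoma marker reached the test. The other lists gave small or mixed counts. These were STAT3 targets (5 higher and 3 lower of 14), glucocorticoid response (4 and 2 of 13), MHC class I presentation (1 and 4 of 20), heat shock proteins (1 and 5 of 14, 0 and 2 with the 8 libraries alone and 1 and 1 without the libraries numbered 2), cholesterol synthesis (0 and 2 of 21), lipid genes (3 and 2 of 13), survival and death genes (2 and 2 of 20), mRNA decay (3 and 5 of 13) and MAP kinase regulators (2 and 4 of 15). Leaving out 1 library moved some of these by over 1.5 times: mRNA decay gave 3 fallen genes without untreated replicate 3 or CM replicate 1 and 2 without CM replicate 3. MHC class I presentation gave 0 and 3 without CM replicate 1, and the interferon-stimulated genes 1 and 4 without untreated replicate 2. Survival genes gave 1 and 1 without untreated replicate 4 and 0 and 2 without CM replicate 3. Among ILC1-associated genes 1 of 8 rose and 1 fell, and among 8 tested T cell markers Cd6 rose and Trac fell. None of the 5 tested neutrophil, 3 erythroid and platelet or 1 B cell markers was called, and Itgax was the 1 of 9 macrophage and dendritic cell markers that fell.

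**Figure D3:**
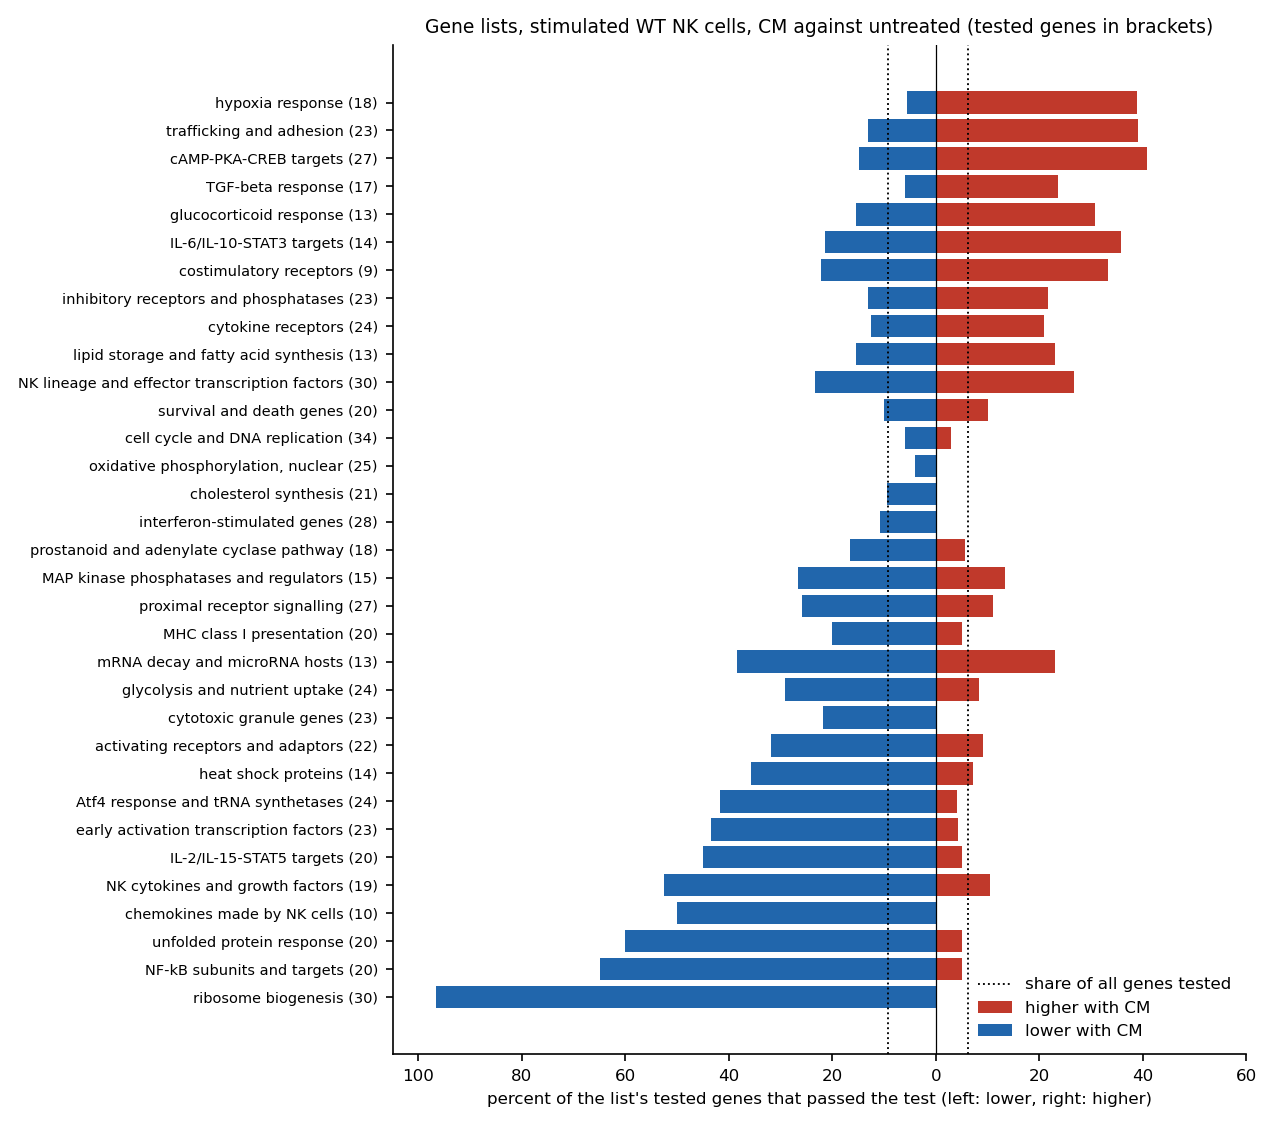
Percent of the tested genes of each list that were called higher (right, red) or lower (left, blue) with CM in stimulated WT NK cells, with the number of tested genes in brackets. Dotted lines mark the shares over all tested genes, 6.2% and 9.22%; ribosome biogenesis reaches furthest to the left with 29 of 30 genes, and some lists share members.

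CM was then compared with purified PGE2 on the same stimulated WT cells, which asks whether the medium did more than the lipid. Only Epb41l2, a membrane skeleton gene, was called. It read 98.9, 139, 116 and 104 CPM with CM, 56.1, 78.2, 55.1 and 57.6 CPM with PGE2 and 93.7, 135, 82.7 and 81.3 CPM untreated, so the CM libraries lay above the PGE2 libraries and among the untreated ones (CM minus PGE2 0.89 ± 0.17, adjusted p = 0.0374). That is 1 gene higher (0.00933% of tested genes) and 0 lower (0%), while 491 genes had an unadjusted p under 0.05 and DESeq2 also called 1. With the replicate number as a block 24 genes were called, 13 higher and 11 lower, although these numbers were not taken to pair the WT libraries. The call for Epb41l2 was lost when PGE2 replicate 1, 3 or 4 or CM replicate 2, 3 or 4 was left out, and without the libraries numbered 2 (adjusted p = 0.363).

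A missed threshold does not show that the treatments act alike, so the sizes are given. The median SE of this difference over the 1654 genes called with CM was 0.19 on the log2 scale. For Tnf, CM minus PGE2 was -0.19 ± 0.25, for Pdgfa 0.13 ± 0.18, for Rel 0.03 ± 0.13 and for Gzmb 0.05 ± 0.23. Differences were larger for Ccl1 (0.67 ± 0.20, means 1843 CPM with CM and 1156 with PGE2), Il12rb2 (-0.56 ± 0.16) and Hif1a (-0.54 ± 0.13), none of them called (adjusted p = 0.205 to 0.483). Each treatment was set against the same untreated libraries, so their changes share that reference.

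Of 17 tested TGF-beta response genes, 4 rose with CM (Pmepa1, Tgfb1, Tgfbr2 and Ldlrad4) and 1 fell, while with PGE2, against the same untreated libraries, 1 rose and 2 fell. Over all tested genes 643 were higher (6%) and 1033 lower (9.63%) with PGE2. Pmepa1, a feedback inhibitor of TGF-beta signalling, read 55.9, 114, 84.5 and 72.0 CPM untreated, a mean of 128 CPM with PGE2 and 126, 239, 163 and 189 CPM with CM. CM minus PGE2 was 0.48 ± 0.20 for Pmepa1 and 0.37 ± 0.15 for Tgfb1, and neither was called (adjusted p = 0.994 and 0.959). With the 8 libraries alone 2 of the list rose.

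Stimulation changed the effect of CM for a set of genes. The change with CM was tested in stimulated minus unstimulated WT cells, and 90 genes had a more positive (0.839%) and 145 a more negative change (1.35%) with stimulation (235 in all). Which direction held more genes depended on the setting: the compared libraries alone gave 83 and 61, the fit without the libraries numbered 2 gave 35 and 31, and no filter gave 69 and 70. The replicate block gave 383 and 536. Without stimulation 488 genes were higher (4.55%) and 395 lower (3.68%) with CM. Ifng read 195 to 240 CPM in unstimulated untreated cells and 149 to 239 CPM with CM (-0.18 ± 0.19), and the difference between the states was -1.29 ± 0.26 (adjusted p = 0.002). For Tnf, at 19.0 to 29.7 and 10.9 to 22.2 CPM without stimulation, it was -1.99 ± 0.38, for Pdgfa -1.72 ± 0.27, for Ccl1 -1.57 ± 0.28 and for Rel -1.23 ± 0.19. These genes were low in cells that had not been stimulated: Ccl1 had a mean of 862 CPM there against 6205 with stimulation.

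The kinase gene Jak2 and the RNA helicase genes Dhx34 and Ifih1 fell with CM under stimulation (-1.43 ± 0.16, -1.59 ± 0.24 and -1.34 ± 0.30) but not in its absence (0.39 ± 0.18, 0.32 ± 0.29 and 0.45 ± 0.41), with differences of -1.82 ± 0.24, -1.90 ± 0.38 and -1.79 ± 0.51. The call for Ifih1 (adjusted p = 0.0433) was lost with the compared libraries alone (0.0742), without the libraries numbered 2 (0.311) and in 10 omissions of a single library (up to 0.13). Jak2 read 249, 448, 297 and 281 CPM without and 122, 114, 122 and 115 CPM with CM in stimulated cells. In the other direction Ifngr1 was already at 1055 to 1207 CPM in unstimulated untreated cells against 192 to 285 CPM with stimulation, so CM-treated stimulated cells lay nearer the unstimulated level (difference 1.48 ± 0.20). Mxi1 (1.72 ± 0.33), Susd3 (1.86 ± 0.40) and Klrb1b (1.34 ± 0.20) had the same order of means. Cxcr6 and Plp2 fell with CM in unstimulated cells (-0.96 ± 0.28 and -0.84 ± 0.27) and were not called in stimulated ones (0.70 ± 0.28 and 0.65 ± 0.28), with differences of 1.66 ± 0.39 and 1.49 ± 0.39. Without the libraries numbered 2 neither difference was called (adjusted p = 0.102 and 0.103), and that of Plp2 was also lost in 4 omissions of a single library (up to 0.0693).

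For other genes no difference between the states was called. Crem changed by 1.59 ± 0.19 with and 1.98 ± 0.19 without stimulation (difference -0.38 ± 0.26), Rgs2 by 1.78 ± 0.15 and 1.90 ± 0.15 (-0.12 ± 0.21), Stat3 by 1.75 ± 0.13 and 1.93 ± 0.13 (-0.18 ± 0.18) and Gzmb by -1.04 ± 0.23 and -1.13 ± 0.23 (0.09 ± 0.32). Ncr1 went the other way and fell more without stimulation, from 226 to 325 CPM to 67.0 to 84.2 CPM (-1.92 ± 0.17, difference 1.15 ± 0.23). Of the 665 genes higher in stimulated cells, 548 (82.4%) had a positive change in unstimulated cells, where 50.7% of all tested genes did, and 227 were called higher and 3 lower there. Of the 989 lower genes, 731 (73.9%) had a negative change, against 49.3% of all tested genes, and 160 were called lower and 7 higher. These 2 comparisons share no library. The 227 genes are 34.1% of the list in stimulated and 46.5% of that in unstimulated cells, and the 160 genes 16.2% and 40.5%.

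**Figure D4:**
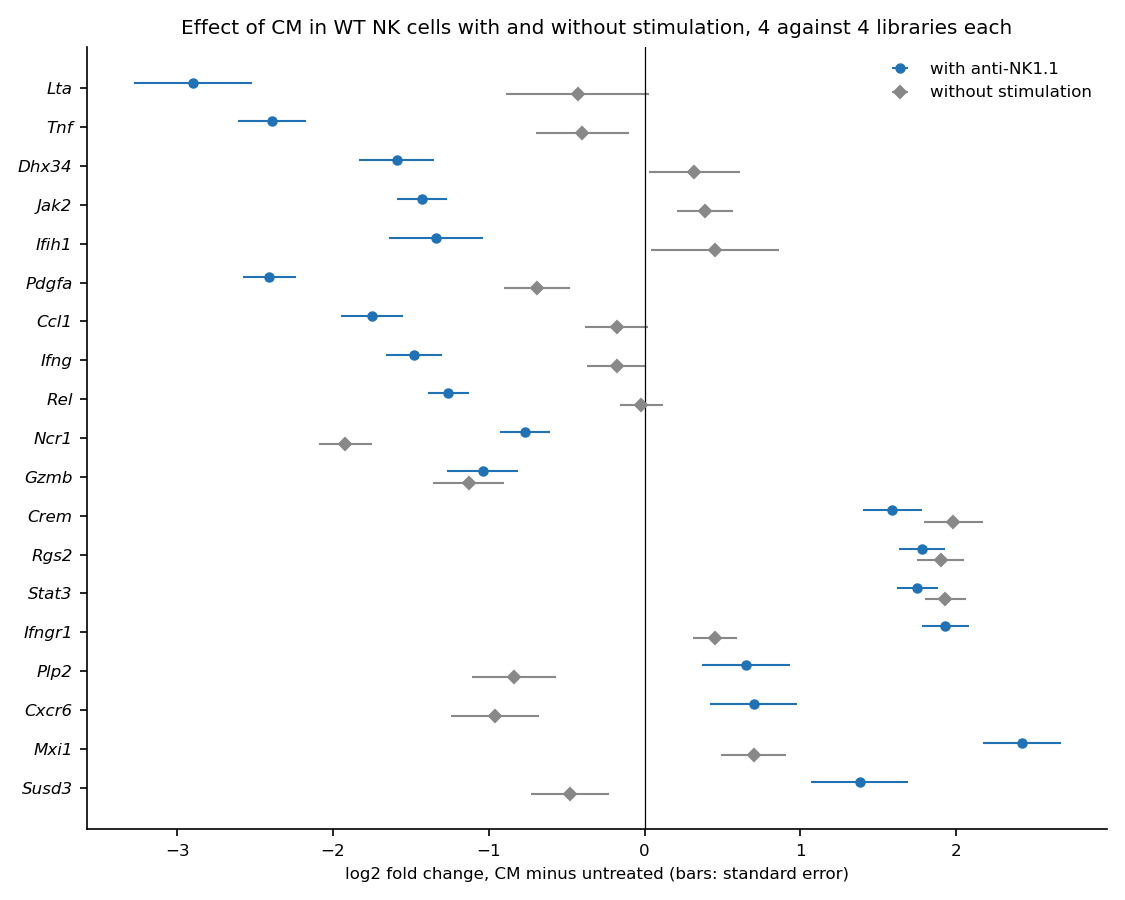
Log2 change with CM in WT NK cells with anti-NK1.1 (circles) and without stimulation (diamonds), with standard errors, 4 against 4 libraries each. Lta, Tnf, Pdgfa, Ccl1, Ifng and Rel lie far to the left only with stimulation, Crem, Rgs2 and Stat3 lie to the right in both states, and Ncr1 is lower without stimulation.

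The PGE2 receptors were examined through the 2 knockout genotypes. The targeted genes come first: Ptger2 read 5.39 to 13.8 CPM in stimulated untreated EP2KO and 7.97 to 13.0 CPM in DKO libraries, against 16.4 to 36.4 CPM in WT. Ptger4 read 40.8 to 67.7 CPM in EP2KO, 67.6 to 76.8 CPM in DKO and 51.4 to 80.5 CPM in WT, so the 3′ counts of Ptger4 were not lower in the DKO. Which part of either gene is deleted is not given in the sources used here, and a 3′ tag outside it does not check the deletion. DKO libraries also read Xist at 29.8 to 46.3 CPM and Ddx3y at 66.9 to 178 CPM, against at least 532 CPM and at most 6.89 CPM in stimulated WT and EP2KO libraries, untreated or with CM. Genotype and sex cannot be told apart in the DKO.

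Without EP2, most genes called in WT still changed with the same sign. In EP2KO cells 483 genes were higher (4.5%) and 634 lower (5.91%) with CM. Of the 665 genes higher in WT, 652 (98%) had a positive change in EP2KO, where 46.6% of all tested genes did. Their median was 0.63 against 0.86 in WT, and 345 were called, 51.9% of the WT list and 71.4% of the EP2KO list. Of the 989 lower genes 971 (98.2%, against 53.4% of all tested genes) were negative, with a median of -0.51 against -0.70. Of these, 508 were called, 51.4% and 80.1% of the 2 lists. The WT medians come from genes chosen on the WT values. No gene had a called difference between EP2KO and WT (0 higher and 0 lower, 0%), 266 had an unadjusted p under 0.05, and DESeq2 called 0. Stat3 changed by 1.71 ± 0.13 and Crem by 1.60 ± 0.19 in EP2KO. Ifng changed by -0.85 ± 0.18 there, 0.63 ± 0.25 less negative than in WT, and Ncr1 by -0.13 ± 0.16, 0.64 ± 0.23 less negative. Over the genes called in WT the median SE of this difference was 0.26. S100a8 stood at 18.9 to 195 CPM in untreated and 29.0 to 246 CPM in CM libraries of EP2KO cells, above the range of the WT libraries other than replicate 2 in all but 1 of them, and its part in these values was not tested.

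With EP4 targeted as well, fewer genes passed the test. In DKO cells 6 genes were higher (0.056%) and 2 lower (0.0187%) with CM, and 723 had an unadjusted p under 0.05. Same-numbered DKO libraries deviated together, and with the replicate number as a block 44 genes were higher and 26 lower, including all 8. The difference in effect, DKO minus WT, was called more positive for 79 genes (0.737%) and more negative for 51 (0.476%). Tnf read 129, 107 and 84.3 CPM untreated and 89.8, 69.6 and 66.3 CPM with CM (-0.51 ± 0.23), and the difference from WT was 1.89 ± 0.32 (adjusted p = 0.000116). Ifng read 1906, 1824 and 1242 CPM untreated and 1565, 1409 and 1043 CPM with CM (-0.31 ± 0.21, difference 1.17 ± 0.27). Pdgfa, with a change of -0.18 ± 0.18 and a difference of 2.23 ± 0.25, and Rel, with -0.04 ± 0.15 and 1.22 ± 0.20, were near 0 in the DKO. The rises were smaller too: Stat3 went from 194 to 208 CPM to 235 to 340 CPM (0.50 ± 0.15, difference -1.25 ± 0.20), Ifngr1 changed by 0.42 ± 0.17 (difference -1.51 ± 0.22) and Crem by 0.40 ± 0.22 (difference -1.19 ± 0.29). The fall of Ptger4 itself was at 0.03 ± 0.20 in the DKO (difference 1.24 ± 0.28). With the block 376 genes differed between DKO and WT, with the libraries of these groups alone 36, and without the libraries numbered 2 there were 48. For this difference the block also pairs the WT libraries, whose numbers were not taken as paired.

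Of the 665 genes higher in WT, 545 (82%) still had a positive change in the DKO, against 50.2% of all tested genes, with a median of 0.24. Of the 989 lower genes 790 (79.9%, against 49.8%) were negative, with a median of -0.17. Ribosome biogenesis had a median of -0.32 there with 0 of 30 called, and -0.65 with 24 called in EP2KO. The list of cAMP-responsive genes had a median of 0.38 in the DKO with 1 of 27 called, Vegfa, against a median of 0.52 in WT. In EP2KO the median of that list was 0.30, with 10 called higher and 1 lower.

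The 8 genes called in the DKO without the block are named here, and were chosen after their values were seen. Vegfa read 28.3, 24.8 and 21.1 CPM untreated and 60.6, 44.4 and 63.1 CPM with CM, a change of 1.18 ± 0.23 that differed from the WT change by -0.10 ± 0.30. Arid5b (0.83 in the DKO and 1.15 in WT), B4galt1 (0.63 and 0.65) and Vgll4 (0.87 and 1.43) rose in either genotype, and Tnfsf8 (-0.82 ± 0.18) and Serpina3g (-0.86 ± 0.18) fell in either. Kansl3 and the fatty acid desaturase Scd2 were called in the DKO but not in WT; their differences from WT were 0.85 and 0.72 and were not called (adjusted p = 0.117 and 0.481). Of the TGF-beta genes, Pmepa1 changed by 0.93 ± 0.23 and Tgfb1 by 0.66 ± 0.17 in the DKO, neither called (adjusted p = 0.12 and 0.13), with differences from WT of -0.20 ± 0.31 and -0.04 ± 0.23. In EP2KO cells 6 of the 17 TGF-beta response genes rose, and in unstimulated WT cells 7 rose, with none falling in either.

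**Figure D5:**
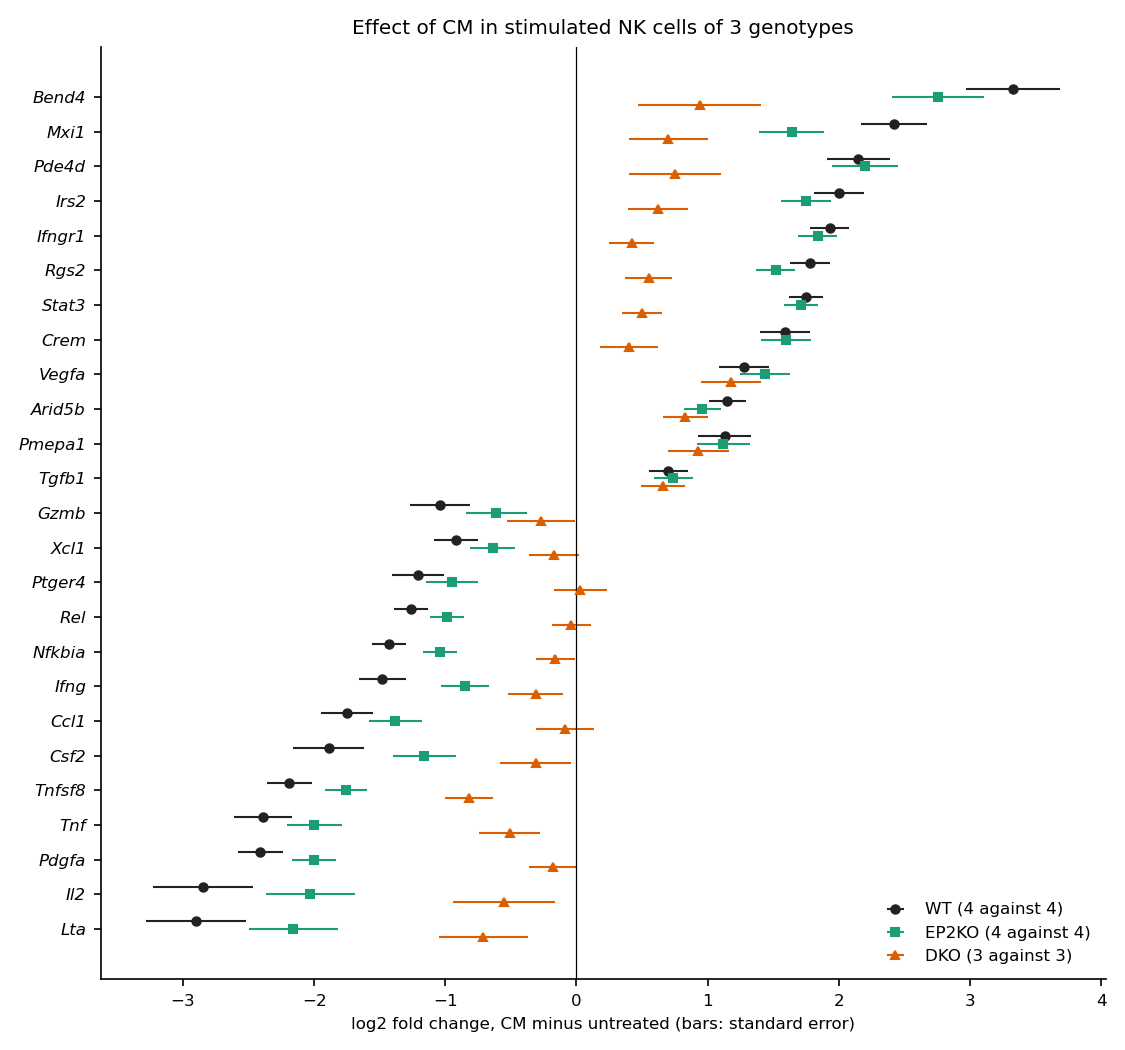
Log2 change with CM in stimulated NK cells of WT, EP2KO and DKO mice, with standard errors (4 against 4, 4 against 4 and 3 against 3 libraries). The DKO triangles lie nearer 0 than the WT circles for genes such as Tnf, Ifng, Rel and Crem. They lie close to the circles for Vegfa, Arid5b, Pmepa1 and Tgfb1. Vegfa is itself on the cAMP and cytokine lists, and Tgfb1 is on the cytokine list.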

How the data were processed

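The authors deposited 1 table of raw counts per gene symbol (36273 genes, 64 libraries of bulk 3′ mRNA sequencing with molecular identifiers, per the labels' protocols). Build GRCm38 and DESeq2 are named in the submitters' processing notes; the aligner, and whether counts are molecules or reads, are not named there or in the labels. All columns matched 1 sample and 0% of counts lay in rows naming no gene. Genes passing filterByExpr at a minimum count of 10 were tested (10723, holding 99.21% of counts). A single edgeR 4.0.16 model held 1 mean for each of the 18 groups and took in all 64 libraries (limma 3.58.1, R 4.3.3), with TMM scaling and robust quasi-likelihood. P-values were adjusted by Benjamini-Hochberg over all tested genes and called under 0.05. CPM are TMM-scaled, and the SE is the log2 change divided by the square root of F. The procedure was tested on simulated data.

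Named genes are the 15 largest rises and 15 largest falls with CM among called genes whose average log2 CPM reached 4 and whose libraries did not overlap, 5 each way for the differences, up to 4 called members of each of 41 lists by smallest p, and a fixed set of receptors and effectors. Predicted genes and receptor segments were passed over. Further list members, and the genes called in the DKO, are named after their values were seen. The members and lists were chosen with earlier results of these data known. Alternatives were RLE scaling, no filter, a replicate block, the compared libraries alone, DESeq2 1.42.0 and leaving out each library; leaving out the libraries numbered 2 was added after seeing the data. Libraries of a group differed beyond counting noise, so none was treated as a duplicate. Counting did not state strand, so antisense or overlapping genes and near-identical copies may share counts. Results for a few genes that the rule would name are not reported here. Replicate numbers were taken to pair only the DKO libraries, whose same-numbered deviations correlated at 0.157 to 0.378.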

Additional observations from a re-analysis of the deposited data

Results flagged for a closer look

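In groups of 4 libraries a value was marked when its gap to the nearest of the others passed Dixon's critical share of the group's range. Chance marks about 1 in 20 such groups, and 18 of 284 gene and group pairs were marked. With CM, replicate 4 was marked for Ccl4 (6763 CPM, the others 5254 to 5477), Nkg7 (1205, the others 921 to 963), Fosl2 (311, the others 252 to 259) and Icos (74.3, the others 97 to 100). Replicate 3 was marked for Mxi1 (42.6 CPM, the others 34.9 to 35.4), Ptges3 (238, the others 207 to 212) and Ltb (125, the others 119 to 120). Replicate 2 was marked for Hbegf (12.9 CPM), Havcr2 (58), Plin2 (10.5) and Klrb1c (126, the others 164 to 171).

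Among untreated libraries, replicate 2 was marked for Fbxo32 (11.4 CPM), Bcl6 (26.4, the others 15.1 to 16.4) and Dusp6 (59.1), replicate 4 for Csf2 (142, the others 90.4 to 95.2) and Calr (717, the others 926 to 955), and replicate 1 for Klf9 (77.9) and Insig1 (28).

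The effect of CM differed between stimulated and unstimulated WT cells for 235 genes. The largest named differences were Susd3 (1.86), Mxi1 (1.72), Cxcr6 (1.66), Plp2 (1.49) and Ifngr1 (1.48) upward, and Lta (-2.47), Tnf (-1.99), Dhx34 (-1.90), Jak2 (-1.82) and Ifih1 (-1.79) downward, on the log2 scale.

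Between DKO and WT the effect differed for 130 genes. The named ones were Il2 (2.30), Pdgfa (2.23), Lta (2.19), Tnf (1.89) and Cd83 (1.83), less lowered in the DKO, and Dipk1a (-2.44), Bend4 (-2.39), Basp1 (-2.11) and Trf (-1.88), less raised or lowered there.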

How the results depend on the processing

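No named gene changed sign in a call under any alternative run, but the stimulation difference, with 90 genes more positive and 145 more negative, turned to 83 and 61 with the compared libraries alone and 35 and 31 without the libraries numbered 2. Genes of mRNA decay turned from 3 higher and 5 lower to 3 and 2 without CM replicate 3. For CM against untreated in stimulated WT (1654 genes), RLE scaling called 1660, no filter 1151, DESeq2 1589, the compared libraries alone 760 and omission of the libraries numbered 2 called 1132; leaving out each library gave 1261 to 1713. CM against PGE2 (1 gene) gave 0 with RLE scaling, 2 with no filter, 0 with the compared libraries alone, 0 without the libraries numbered 2 and 0 to 3 with each library left out. The stimulation difference (235) gave 139 with no filter, 144 with the compared libraries alone, 66 without the libraries numbered 2 and 136 to 362 with each library left out. It moved by over 1.5 times without untreated unstimulated replicate 1 (144) or 4 (136), untreated stimulated replicate 4 (362), or stimulated CM replicate 1 (150) or 4 (153). The DKO minus WT difference (130) gave 36 with the compared libraries alone, 48 without the libraries numbered 2 and 86 to 193 with each library left out, the lowest without DKO untreated replicate 2 or DKO CM replicate 3. The EP2KO minus WT difference gave 0 under every alternative run. Smaller fits have fewer libraries from which to estimate the spread; the cause of the other shifts was not tested.

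With the replicate number as a block, the counts were 2346 for CM in stimulated WT, 24 against PGE2, 919 for the stimulation difference, 0 for EP2KO and 376 for the DKO difference. Deviations of same-numbered CM and untreated libraries correlated at 0.182, 0.441, -0.006 and 0.437, and not every library correlated best with its own number, so the numbers were not taken to pair the WT libraries, nor those of EP2KO (0.054 to 0.383). In stimulated WT cells, replicates 1, 2 and 4 correlated best with their own number and replicate 3 did not (-0.006 against 0.095). This rule does not show that WT or EP2KO libraries are unpaired. Neutrophil marker shares kept 1 order of replicates in stimulated WT cells: 2, 3, 1 and 4 from high to low. They were 0.0201%, 0.00755%, 0.00507% and 0.0045% untreated and 0.0248%, 0.00771%, 0.00701% and 0.00462% with CM. In stimulated EP2KO cells the order was 1, 4, 2 and 3, both untreated and with CM. Same-numbered libraries thus shared this feature across treatments. If WT or EP2KO libraries are paired, the main fit leaves the pairing out. The DKO pairs correlated at 0.344, 0.157 and 0.378, each best with its own number, and were taken as paired; the block for CM in the DKO alone, added after seeing the data, called 70 genes in place of 8.

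Of 142 named genes in stimulated WT, calls were lost for 6 with no filter, 15 with the compared libraries alone, 11 without the libraries numbered 2 and 11 in at least 1 omission of a single library. Omitting 1 library ended the calls of Adcy7, Bad, Bcl10, Bcl2l11, Cd6, Cycs, Itgax, Psmb9, Ptger2, Rgs16 and Trac there. It ended those of Ifih1 (adjusted p up to 0.13), Plp2 (up to 0.0693) and Lta (0.0846 without unstimulated CM replicate 4) for the stimulation difference, and of Bend4 (up to 0.26), Dipk1a (up to 0.153), Il2 (up to 0.075) and Lta (0.0929 without DKO CM replicate 3) for the DKO difference. Depth limits the genes with the lowest CPM, whose levels come from single counts.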
